A study of Homo sapiens with 24 samples.

Results

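The comparison described here is that of MCF-10A MYC-ER cells after 24 h of 4-hydroxytamoxifen (4-OHT) with the same cells at 0 h, across all genes of the deposited table of estimated counts. It rests on 6 of the series' 24 RNA-seq libraries, 3 labelled MYC-ER 24 h and 3 labelled MYC-ER 0 h, chosen by their column names. MCF-10A is an established, non-tumorigenic line of human mammary epithelial cells, and the labels give the genotype of the other line as MYC.ER. All wells, 0 h included, were grown in 3 dimensions on growth-factor-reduced Matrigel from 10000 cells per well, had their medium replaced at 72 h, and were collected together on day 5. The 24 h wells received 1 μM 4-OHT for the last 24 h before collection and the 0 h wells none. Wild-type MCF-10A cells, called parental here, at 0 h and 24 h of 4-OHT, and MYC-ER cells at 8 h and 48 h, 3 libraries each, serve as further reference. The promoter that drives the fusion, and whether the line is 1 clone, are not given in the sources used here. Which libraries shared a sequencing lane is not given either. The labels say that cells were seeded in triplicate but not that the 3 libraries of a group came from separate experiments, so the p-values measure the spread between these libraries.

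MYC is a transcription factor that binds DNA as a dimer with MAX, most often at the sequence CACGTG, called the E-box. It is known for raising genes of ribosome assembly, nucleotide and polyamine synthesis and entry into the cell cycle. MYC-ER is MYC joined to a ligand-binding domain from the oestrogen receptor, which holds the protein inactive until 4-OHT is added. Downstream of cell-cycle entry, E2F factors act on genes of the G1/S transition and DNA replication, and the MuvB complexes with B-MYB and FOXM1 act on genes of G2 and mitosis through an element called the CHR.

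The sequences that follow are stretches just before the annotated start of genes that moved most in this comparison or that stand for a gene group described below, from RefSeq on GRCh38.p14, 5′ to 3′ on the gene's strand. Capitals mark the motif. The first set shows the CHR (TTTGAA or TTCGAA, searched on both strands) in 6 genes of G2 and mitosis. MKI67 lies at chr10:128126424-128126493 (minus strand), PLK1 at chr16:23678819-23678888 (plus strand), CCNB2 at chr15:59105076-59105145 (plus strand), KIF4A at chrX:70290034-70290103 (plus strand), ANLN at chr7:36389792-36389861 (plus strand) and CDCA8 at chr1:37692446-37692515 (plus strand).
MKI67: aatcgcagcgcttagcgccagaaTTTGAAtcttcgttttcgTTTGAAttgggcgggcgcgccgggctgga
PLK1: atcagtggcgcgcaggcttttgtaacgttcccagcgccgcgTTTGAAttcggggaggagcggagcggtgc
CCNB2: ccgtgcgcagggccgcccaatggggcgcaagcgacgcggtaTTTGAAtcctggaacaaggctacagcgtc
KIF4A: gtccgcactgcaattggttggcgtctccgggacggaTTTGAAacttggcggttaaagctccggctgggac
ANLN: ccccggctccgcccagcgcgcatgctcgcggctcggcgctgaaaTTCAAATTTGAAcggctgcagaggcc
CDCA8: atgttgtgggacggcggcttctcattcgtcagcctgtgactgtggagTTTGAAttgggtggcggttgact
The CHR stood within 47 bases of the start in each of these, as 1 copy in 4 of them and as 2 copies in MKI67 and ANLN. In MKI67, PLK1 and CCNB2 a match began 29 bases before the start. Over the 59 G2 and mitosis genes with a promoter in the RefSeq table, 43 (72.9%) held the CHR in the window from 250 bases before to 50 bases after the start. The share was 11.9% of the 13236 tested genes with a promoter in the table and 16.6% of all 27305 promoters. Among genes changed at least 8-fold at 24 h, it was in 134 of 595 promoters of the higher genes (22.5%). Of the lower ones 47 of 227 held it (20.7%), so the CHR in this window did not set the 2 sides apart.

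The second set shows the E2F core (GGCGGGA or GGCGCGA, both strands) in 5 genes of replication origin licensing and firing. CDC45 lies at chr22:19479850-19479919 (plus strand), MCM10 at chr10:13161488-13161557 (plus strand), GINS2 at chr16:85688955-85689024 (minus strand), CDT1 at chr16:88803719-88803788 (plus strand) and CDC6 at chr17:40287809-40287878 (plus strand).
CDC45: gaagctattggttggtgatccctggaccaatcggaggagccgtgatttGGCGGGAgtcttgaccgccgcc
MCM10: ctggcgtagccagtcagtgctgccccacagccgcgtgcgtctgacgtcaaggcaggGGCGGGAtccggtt
GINS2: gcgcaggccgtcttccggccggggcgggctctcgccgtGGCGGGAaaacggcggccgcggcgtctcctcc
CDT1: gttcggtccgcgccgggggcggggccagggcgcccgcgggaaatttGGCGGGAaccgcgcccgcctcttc
CDC6: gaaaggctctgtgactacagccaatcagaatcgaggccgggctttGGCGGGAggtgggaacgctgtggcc
All 5 matches began within 32 bases of the start. The core was in 29 of 45 promoters of the DNA replication list (64.4%) and in 19 of 22 of the DNA repair list (86.4%). The share was 29.4% of the promoters of tested genes and 19.2% of all promoters. Among genes changed at least 8-fold at 24 h, it was 29.6% for those higher and 16.3% for those lower.

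The third set shows the E-box (CACGTG, which reads the same on both strands) in 3 genes of ribosome assembly, UTP20 at chr12:101280035-101280104 (plus strand), UTP4 at chr16:69132579-69132648 (plus strand) and NAT10 at chr11:34105559-34105628 (plus strand).
UTP20: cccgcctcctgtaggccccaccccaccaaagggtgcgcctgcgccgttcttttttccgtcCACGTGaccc
UTP4: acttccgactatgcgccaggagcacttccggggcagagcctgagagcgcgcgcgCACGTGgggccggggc
NAT10: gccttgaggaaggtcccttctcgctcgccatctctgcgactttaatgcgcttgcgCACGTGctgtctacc
It was in 11 of 33 promoters of ribosome assembly genes (33.3%) and in 7 of 26 of nucleotide synthesis (26.9%). The share was 9.6% of the promoters of tested genes and 7.43% of all promoters. Lists that fell held the E-box as well. It was in 8 of 22 promoters of lysosome and autophagy genes (36.4%) and 6 of 26 of FOXO and starvation genes (23.1%). Among ribosome assembly genes the median log2 change was 0.854 for the 11 with an E-box and 0.832 for the 22 without. Over all tested genes an E-box in this window went with little difference. The 1271 genes that held one had a median log2 change of 0.0068 at 24 h, and the 11965 that did not had −0.0124.

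The last set shows the hypoxia response core (ACGTG or GCGTG, both strands, of which the first also lies within the E-box) in CA9 at chr9:35673818-35673927 (plus strand) and ADM at chr11:10304963-10305072 (plus strand), and the FOXO motif (GTAAACA, both strands) in TXNIP at chr1:145996580-145996719 (minus strand).
CA9: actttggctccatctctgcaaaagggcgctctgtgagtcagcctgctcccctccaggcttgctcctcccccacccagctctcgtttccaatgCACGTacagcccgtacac
ADM: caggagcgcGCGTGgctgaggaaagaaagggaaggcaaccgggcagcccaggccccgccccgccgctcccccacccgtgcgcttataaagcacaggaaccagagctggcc
TXNIP: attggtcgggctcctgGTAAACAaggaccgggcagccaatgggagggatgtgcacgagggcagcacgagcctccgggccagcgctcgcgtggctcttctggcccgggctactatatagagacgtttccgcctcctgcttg
The hypoxia core is short and common. It was in 86.4% of the 22 promoters of hypoxia genes but also in 60.6% of those of tested genes. The FOXO motif was in 4 of 26 promoters of FOXO and starvation genes (15.4%), against 2.51% of those of tested genes. These matches describe letters in a window and do not show binding.

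The 6 libraries held 144205617 to 180459929 counts each, and all 24 held 136860029 to 182438505. Of 60668 rows in the table, 22158 genes passed a filter on low counts and were tested. Levels are given as CPM, each gene's count divided by the library's count in units of 1e6 counts after scaling with the TMM method, and changes as log2 differences with their standard error (SE). Adjusted p is from edgeR's quasi-likelihood test with Benjamini-Hochberg adjustment over the 22158 genes, and a gene is said to be higher or lower where it is under 0.05. Transcripts of the mitochondrial genome took 9.24% to 9.71% of the counts at 0 h and 6.34% to 6.65% at 24 h. In these bulk samples a gene's fall through fewer cells of a type and through less of its RNA per cell cannot be told apart. CPM are shares of a library's counts, and every library was made from 1 μg of RNA. A change in the total RNA per cell would not show in them and was not tested. Higher and lower therefore mean a larger or smaller share.

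MYC itself was checked first. It measured 394, 378 and 388 CPM in the 0 h libraries and 329.5, 322 and 312 CPM in the 24 h libraries. The groups did not overlap, and MYC fell by 0.27 on the log2 scale (SE 0.07, adjusted p = 0.0015). The mean was 795 CPM at 8 h and 248 CPM at 48 h, and 532 ± 68.7 and 506 ± 14.1 CPM (SD, n = 3) in parental cells at 0 h and 24 h. These counts do not separate the endogenous gene from the fusion, and 4-OHT acts on the fusion protein, so the MYC count is no check of the genotype.

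At 24 h, 13652 of the 22158 genes (61.6%) differed from 0 h, 6734 higher (30.4%) and 6918 lower (31.2%). At least 2-fold changes numbered 3376 up (15.2%) and 2714 down (12.2%), and changes fitted at 8-fold or more 968 up and 451 down. Of the gene lists described below, that of G2 and mitosis had the highest median change. The lowest was that of acute phase and secreted defence genes, although not with at least 10 counts asked of every library, where FOXO and starvation genes had −1.28 and acute phase genes −1.19. For most genes the 3 libraries of a group lay close together. The groups did not overlap for 15656 genes (70.7%). With this many genes called, the counts of each group below are to be read against the 30.4% and 31.2%, and against a median log2 change of −0.015 over all tested genes. When the counts were scaled by library size alone, that median moved by 0.109 upward, to 0.0937, and 7632 genes were higher and 5860 lower. Counts given for parental cells at 24 h are to be read against that line's own shares, 21.2% higher and 21.7% lower.

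**Figure D1:**
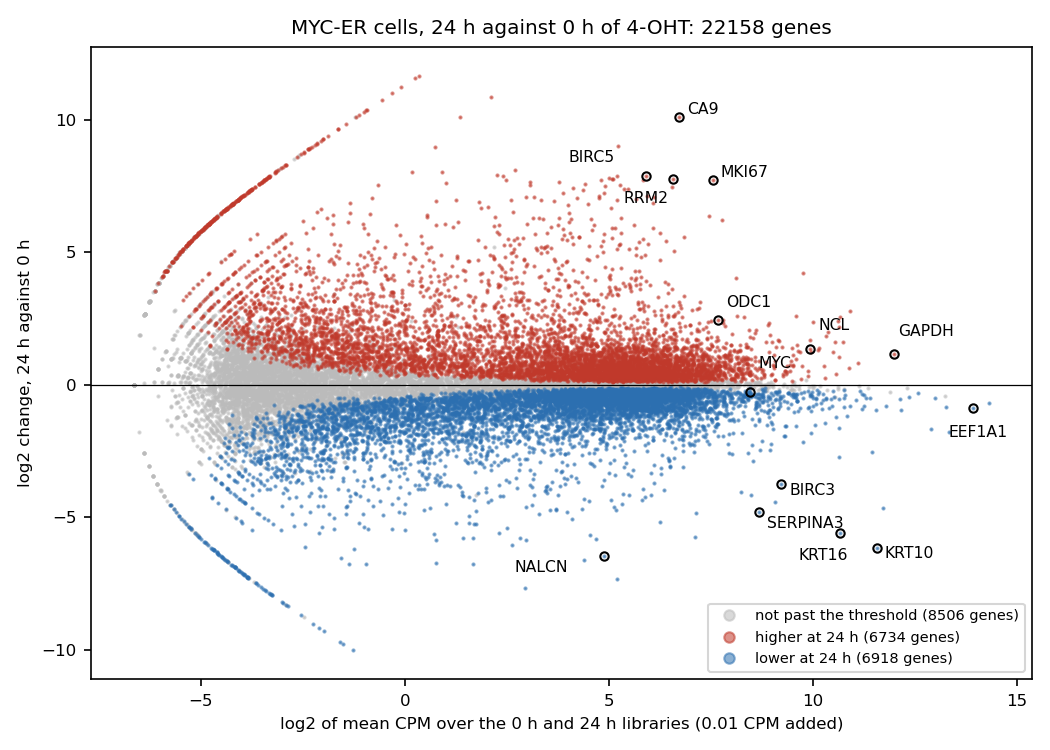
Each point is a tested gene of MYC-ER cells: the horizontal axis gives the log2 of its mean CPM over the 6 libraries, the vertical axis its log2 change at 24 h against 0 h. The named genes with over 200 CPM at 24 h and a rise of more than 7 on the log2 scale are CA9 and MKI67. The curved edges on the left are genes with no counts in 1 group, whose fitted change depends on the prior count.

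The members of 35 gene lists, 896 entries of which 863 were tested, were followed through the comparison.

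**Figure D2:**
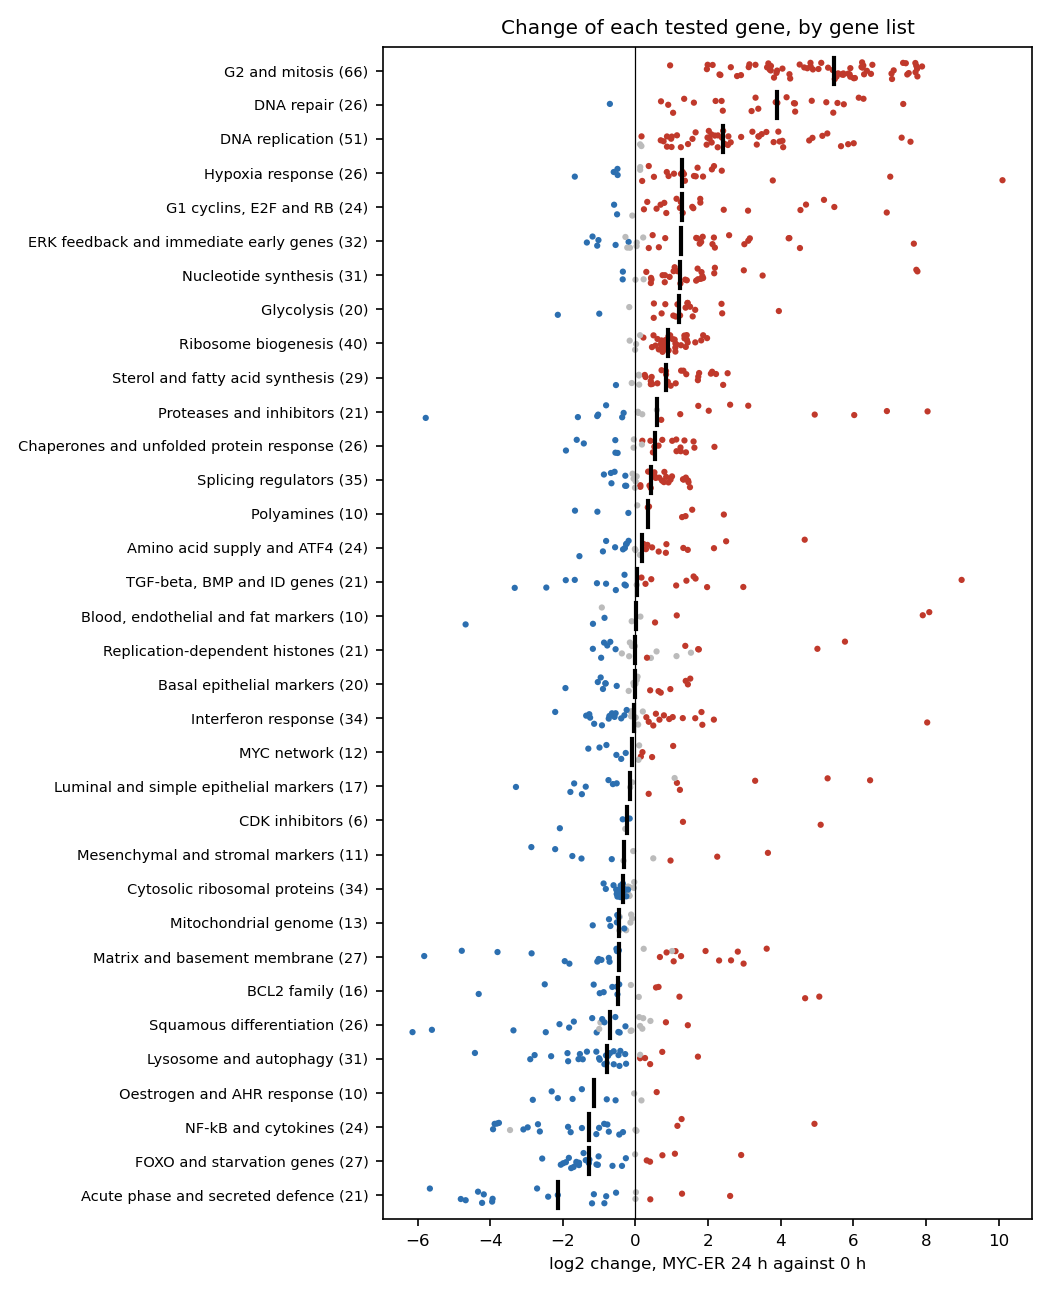
Each point is 1 tested gene, of 34 of the lists, placed by its log2 change at 24 h against 0 h in MYC-ER cells, red where higher, blue where lower and grey where the test was not passed. The black bars are list medians, which run from −2.14 for acute phase genes to 5.46 for G2 and mitosis, and list names carry the number of genes tested.

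Of all lists, G2 and mitosis rose most by its median. All 66 genes of the G2 and mitosis list were higher at 24 h, 65 of them at least 2-fold, with a median log2 change of 5.46. Their summed level was 457, 476 and 466 CPM in the 0 h libraries and 6746, 6501 and 6602 CPM in the 24 h libraries. MKI67, the proliferation antigen Ki-67, measured 1.65, 1.73 and 1.84 CPM at 0 h and 381, 364 and 369.6 CPM at 24 h. Its rise of 7.74 on the log2 scale (SE 0.10, adjusted p = 4.6e-23) was 213-fold. BIRC5, or survivin, the inhibitor of apoptosis protein of the chromosomal passenger complex, went from 0.557, 0.527 and 0.426 CPM to 124, 118 and 117 CPM, a rise on the log2 scale of 7.89 (SE 0.15). In both genes every 24 h library was far above every 0 h library. The rule that named both by size of change asked for no overlap, so this is no separate result. Among the kinases and their partners, PLK1 rose from a mean of 2.19 to 132 CPM, AURKB from 0.279 to 37.1 CPM, NEK2 from 0.314 to 68.4 CPM and CDK1 from 7.51 to 112 CPM. The mitotic cyclins CCNB1 and CCNB2 rose by 5.04 and 5.54 on the log2 scale. The transcription factors that drive this programme rose as well, FOXM1 from 2.80 to 148 CPM and MYBL2, which encodes B-MYB, from 0.543 to 114 CPM. CDC25B, a phosphatase that activates CDK1, was the member with the smallest rise, 0.95, and was already at 108 CPM at 0 h.

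Members whose window held no CHR rose too. The 43 members with a CHR in the window had a median log2 change of 5.49, and the 16 members whose window held none 4.93. All 59 were higher.

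Genes of DNA replication rose in 49 of 51 cases and none fell, with a median of 2.42. ORC2 and TOPBP1 did not pass the test, with log2 changes of 0.13 and 0.16. The members differed in the size of their rise. CDC45, the helicase's cofactor, measured 0.261, 0.204 and 0.199 CPM at 0 h and 43.0, 42.6 and 41.3 CPM at 24 h, a log2 change of 7.58 (SE 0.10). MCM10, which activates the loaded helicase, rose by 7.33, and GINS2 by 5.86. The loading factors CDT1 and CDC6 rose by 5.29 and 4.07. Of the 6 subunits of the helicase ring, MCM5 rose most, from 6.02, 5.93 and 5.87 CPM to 94.2, 94.8 and 90.4 CPM, and MCM7 least, from a mean of 56.5 to 229 CPM. The origin recognition complex was uneven, with ORC1 up by 4.05 and ORC6 by 3.94, and ORC3, ORC4 and ORC5 by 0.87, 0.17 and 0.70. PCNA, the sliding clamp, rose by 2.19, and UHRF1 and DNMT1, which copy DNA methylation behind the fork, by 6.01 and 2.56.

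Repair genes followed, 25 of 26 higher with a median of 3.89. EXO1, a nuclease of mismatch repair and end resection, went from 0.383, 0.533 and 0.56 CPM to 84.0, 82.1 and 79.4 CPM. BRCA1 and BRCA2, of repair by homologous recombination, rose by 4.37 and 5.57, and FANCD2 by 4.40. FANCE was the exception and fell by 0.70 on the log2 scale.

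Of 24 genes of the G1 cyclins, E2F and RB group, 21 were higher and 2 lower. E2F1, the activator of the G1/S genes, rose from 0.429, 0.55 and 0.742 CPM to 19.3, 21.9 and 21.8 CPM and E2F2 from 0.128, 0.221 and 0.263 CPM to 26.0, 24.8 and 23.6 CPM. The E2F repressors E2F7 and E2F8 rose too, by 4.70 and 5.48. Cyclin E2 (CCNE2) rose by 4.54, cyclin E1 (CCNE1) by 1.59 and cyclin D1 (CCND1) by 1.23. The 2 lower genes were RBL2, the pocket protein of resting cells, with a log2 change of -0.51, and TFDP2 with -0.59. Of 6 tested genes of the CDK inhibitor list 2 were higher and 3 lower. CDKN3, a phosphatase that acts on CDKs, rose by 5.10 and CDKN2C (p18) by 1.31. CDKN1C, the CDK inhibitor p57, fell from 122, 100.5 and 106 CPM to 27.3, 24.8 and 25.2 CPM, while CDKN1A (p21) and CDKN1B (p27) fell by 0.35 and 0.16. The CDKN1B call was lost with library size alone as the scale (adjusted p = 0.628). With DESeq2's scaling, with no filter on low counts and with a replicate block, 2 of the list's genes were lower and not 3. CDKN2A and CDKN2B had 0 counts in all 6 libraries. A count of 0 allows up to 3 counts per library, or 0.0170 to 0.0192 CPM, for counting error only.

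Genes of replication-dependent histones were divided, with 6 of 21 tested higher, 6 lower and a median of -0.01, or 0.10 with library size alone as the scale. With at least 10 counts asked of every library 14 could be tested, 2 higher and 6 lower, with a median of −0.27. Of the 21, 5 rose and 1 fell at least 2-fold. H2BC4 rose from a mean of 0.548 to 1.42 CPM and H1-4 from 0.05 to 0.169 CPM. H2AC6 measured 77.2 CPM at 0 h and 40.1 CPM at 24 h, and H1-2 28.7 and 16.8 CPM. Their mRNAs mostly lack a poly(A) tail and the libraries were poly(A) selected, so these counts cover only a part of histone mRNA.

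The classes best known as MYC targets rose by smaller amounts. Of 40 genes of ribosome biogenesis, 36 were higher and none lower, with a median of 0.90. RRS1, UBTF, PPAN and TAF1D did not pass the test. The summed level was 4434, 4735 and 4665 CPM at 0 h and 9048, 8672 and 8662 CPM at 24 h. NCL, the abundant nucleolar protein nucleolin, measured 522, 579 and 553 CPM and then 1447, 1390 and 1385 CPM. Its log2 change was 1.35 (SE 0.07, adjusted p = 3.3e-13). FBL, the methyltransferase of box C/D particles, rose by 1.44, NOLC1 by 1.81, and the RNA polymerase I subunits POLR1A, POLR1B and POLR1C by 0.75, 0.71 and 1.10. Of the genes whose E-box is printed above, UTP4 rose by 1.35, NAT10 by 0.96 and UTP20 by 0.85.

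The proteins of the ribosome itself went the other way. Of 34 cytosolic ribosomal protein genes, 26 were lower at 24 h, 8 did not pass the test and none was higher, with a median of −0.34. RPLP1 measured 1769, 1633 and 1853 CPM at 0 h and 973, 939 and 949 CPM at 24 h, and RPS4X fell by 0.82. With library size alone as the scale, 22 of the 34 were lower and the median was −0.23. All 34 were also lower in parental cells at 24 h, with a median of −0.51. Their summed level there was uneven at 0 h, with 44360, 35160 and 50490 CPM, and 29400, 31930 and 31000 CPM at 24 h. The parental change also followed GC content and length, as given below, and the part of this here was not tested. EEF1A1, the elongation factor whose mRNA carries the same kind of 5′ tract, had the largest fall in CPM under the rule by which genes were named, from 18860, 20660 and 20340 CPM to 11040, 10620 and 10970 CPM.

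Nucleotide synthesis genes were higher in 27 of 31 cases. RRM2, the cell-cycle subunit of ribonucleotide reductase, went from 0.696, 0.868 and 1.03 CPM to 200.4, 184 and 182 CPM, a rise of 7.77 on the log2 scale (SE 0.13). TK1, thymidine kinase, rose from 0.261, 0.3 and 0.216 CPM to 56.3, 56.2 and 54.1 CPM. The de novo enzymes rose less, with PAICS at 1.42, CAD at 1.37, CTPS1 at 1.84 and IMPDH1 at 2.17. RRM2B, another form of the reductase subunit, fell by 0.35, a call lost with library size alone as the scale, and SHMT1 fell by 0.35. In the polyamine pathway ODC1, its first enzyme and a classical MYC target, went from 60.5, 65.2 and 65.7 CPM to 363, 342 and 330.3 CPM, with no overlap. SRM and SMS, the spermidine and spermine synthases, rose by 1.38 and 1.56, and the oxidases SMOX and PAOX fell by 1.05 and 1.67.

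Of 26 genes of chaperones and the unfolded protein response, 17 were higher and 6 lower. HSP90AA1, a chaperone of the cytosol, rose from 560.1, 602 and 572 CPM to 2719, 2559 and 2562 CPM and HSPA8 from 808, 888 and 860 CPM to 2664, 2539 and 2548 CPM. The chaperonin subunits TCP1, CCT2, CCT3, CCT5 and CCT8 rose by 1.01 to 1.35, and the mitochondrial HSPD1 and HSPE1 by 1.24 and 1.39. HSPA5, XBP1, HERPUD1 and DNAJB9, which serve protein folding in the endoplasmic reticulum, fell by 0.55, 1.42, 1.62 and 1.91. DDIT3 and ATF4, factors of the response to unfolded protein and amino acid shortage, fell by 1.54 and 0.81. The list of amino acid supply and ATF4 targets had 12 of 24 higher and 9 lower. PHGDH, the entry enzyme of serine synthesis, rose from 0.765, 0.901 and 1.24 CPM to 24.6, 23.7 and 25.2 CPM.

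Splicing factors were higher in 23 of 35 cases and lower in 7. HNRNPA1 rose by 1.33 and SRSF1, an MYC target in other systems, from 155 to 384 CPM. CLK1 and CLK4, kinases of splicing factors, fell by 0.68 and 0.87 and SRSF5 by 0.66. In the MYC network itself MXD4, an antagonist of MYC that dominates in resting cells, fell by 0.80, MAX by 0.39, and MXD3 rose by 1.04. Of the 13 protein genes of the mitochondrial genome 7 were lower and none higher, with MT-ND1 at -1.18. With library size alone as the scale 4 were lower.

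**Figure D3:**
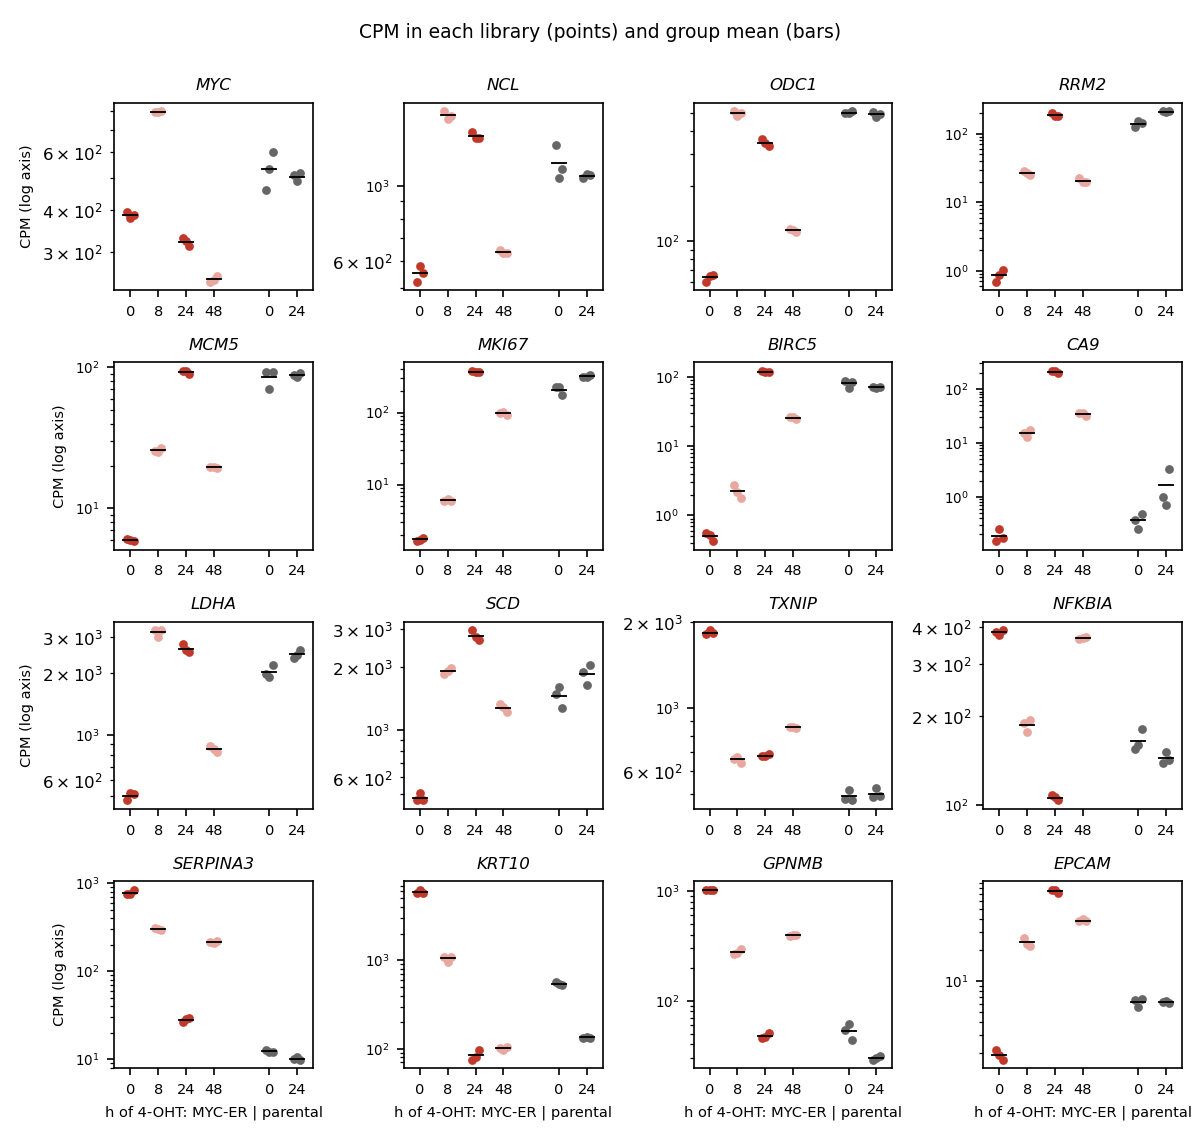
CPM on a log axis in each of 3 libraries per group for 16 genes, with group means as bars; MYC-ER 0 h and 24 h in red, MYC-ER 8 h and 48 h in pink, parental 0 h and 24 h in grey. MKI67, BIRC5, RRM2 and CA9 peak at 24 h, and SERPINA3, NFKBIA and GPNMB are lowest there among the MYC-ER times.

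Most genes of glycolysis and of the hypoxia response were higher. Of 20 glycolysis genes 17 were higher and 2 lower, and the summed level went from 9330, 9777 and 9974 CPM to 22100, 21350 and 20870 CPM. GAPDH, a glycolytic enzyme often taken as a stable reference gene, measured 2358, 2561 and 2659 CPM at 0 h and 5727, 5661 and 5508 CPM at 24 h, the largest rise in CPM among the genes named. GAPDH, EEF1A1, FTH1 and the ribosomal protein genes have close pseudogene copies, and how reads that fit several copies were counted is not given in the sources used here. LDHA, lactate dehydrogenase, rose from 478, 522 and 513 CPM to 2775, 2595 and 2552 CPM, and ENO2, an enolase, by 3.95. The muscle-type PFKM and the glucose carrier SLC2A3 fell, by 1.00 and 2.14, while the platelet-type PFKP rose by 1.65. SLC2A14, a near-identical copy of SLC2A3, had the largest fall of all named genes, from 39.5, 42.8 and 42.9 CPM to 0.39, 0.36 and 0.525 CPM, and the division of reads between the 2 copies is uncertain.

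Of 26 hypoxia genes 20 were higher and 4 lower. CA9, carbonic anhydrase IX, a classical target of HIF-1, had the largest rise of any gene named. It was at 0.151, 0.249 and 0.169 CPM at 0 h and reached 219.7, 217 and 198 CPM at 24 h. The log2 change was 10.11 (SE 0.54, adjusted p = 3.6e-13). EGLN3, a prolyl hydroxylase that acts on HIF, rose from 0.91, 0.601 and 0.806 CPM to 105, 102 and 93.2 CPM, and VEGFA, ADM and PDK1 rose by 1.30, 1.25 and 1.71. HIF1A did not pass the test (164 and 179.5 CPM), EPAS1, which encodes HIF-2α, fell by 0.60 and LOX by 1.67. In parental cells CA9 was 0.368, 0.251 and 0.488 CPM at 0 h and 0.995, 0.708 and 3.31 CPM at 24 h. There, 18 of the 26 hypoxia genes were higher at 24 h of 4-OHT and none lower, with a median of 0.43. Over all tested genes 21.2% were higher and 21.7% lower in that line.

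Sterol and fatty acid synthesis genes were higher in 24 of 29 tested cases. SCD, the stearoyl-CoA desaturase, rose from 468, 505 and 468 CPM to 2969, 2744 and 2659 CPM. DHCR7, HMGCS1 and FDPS of the sterol branch rose by 2.22, 2.11 and 2.08. FASN rose by 0.42, whereas LSS fell by 0.54. The cytoskeletal genes ACTB and TUBA1B also stood among the largest rises in CPM. TUBA1B, an α-tubulin, went from 86.7, 88.4 and 91.5 CPM to 1678, 1634 and 1604 CPM.

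Genes that report signalling through ERK were higher in 20 of 32 cases and lower in 6. In parental cells at 24 h 21 of the 32 were higher and 1 lower, with a median of 0.29, and in MYC-ER cells 22 were lower at 24 h than at 8 h. The change was higher in MYC-ER than in parental cells for 17 and lower for 8. ETV4, an ETS factor induced by ERK, went from 0.0522, 0.0794 and 0.111 CPM to 17.1, 16.3 and 16.4 CPM. ETV5, DUSP6, SPRY4 and SPRY1, a further ETS factor and feedback inhibitors of the pathway, rose by 4.53, 3.15, 3.00 and 3.11. Immediate early genes did not move as 1 group. EGR1 rose by 2.58 and FOSB by 1.70, while FOS fell by 1.34, JUNB by 1.18 and ATF3 by 1.05.

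The FOXO and starvation genes, which resting or growth-factor-poor cells express, made the converse group. Of 27, 21 were lower, 18 of them at least 2-fold, and 5 higher, with a median of −1.28. Their summed level fell from 4263, 4298 and 4198 CPM to 1765, 1759 and 1760 CPM. TXNIP, an inhibitor of glucose uptake whose FOXO motif is printed above, measured 1812, 1872 and 1825 CPM at 0 h and 677, 679.9 and 688 CPM at 24 h. The factors FOXO1, FOXO3 and FOXO4 fell by 1.83, 1.92 and 1.70, KLF4 by 2.57 and KLF9 by 1.37. Among the 5 higher were DEPP1 (2.91) and PIK3IP1 (1.09). GLUL, glutamine synthetase, is not on this list and was named for its fall in CPM. It fell from 4684, 4896 and 4758 CPM to 825, 819 and 843 CPM.

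Lysosome and autophagy genes were lower in 25 of 31 cases, with a median of −0.79. In parental cells 23 of the 31 were lower at 24 h and 1 higher, with a median of −0.30, and the MYC-ER change was the lower one for 18 and the higher one for 5. GPNMB, a glycoprotein of the lysosome and melanosome, fell from 1021, 1032 and 1028 CPM to 46.2, 47.1 and 50.6 CPM. SQSTM1, the autophagy receptor p62, fell by 1.57, MAP1LC3B by 1.34, the cathepsins CTSB and CTSF by 1.08 and 2.78, and TFEB, the factor that induces many of these genes, by 0.60. GLA, α-galactosidase, was the clearest of the 5 that rose (1.72).

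The BCL2 family, which sets the threshold of apoptosis, changed on both sides. BCL2 rose from 0.244, 0.198 and 0.216 CPM to 6.32, 5.61 and 4.93 CPM, and the pro-apoptotic BAX and PMAIP1 (NOXA) rose by 0.57 and 1.21. The pro-apoptotic BMF, known from loss of attachment to matrix, fell from 39.1, 38.8 and 41.7 CPM to 1.81, 1.91 and 2.29 CPM and BCL2L11 (BIM) by 0.88. The protective BCL2L1 (BCL-XL) and MCL1 fell by 1.15 and 0.51.

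Of 21 tested acute phase and secreted defence genes 16 were lower and 3 higher, with a median of −2.14. With at least 10 counts asked of every library 15 of them could be tested, 12 lower and 2 higher, and the median was −1.19. The summed level fell from 4778, 4877 and 5066 CPM to 808, 773 and 786 CPM. SERPINA3, an acute phase protease inhibitor, measured 753, 760.1 and 853 CPM at 0 h and 26.7, 28.4 and 29.3 CPM at 24 h. Its log2 change was -4.81 (SE 0.07, adjusted p = 1.3e-22). C3, the central complement protein, fell from 2696, 2796 and 2793 CPM to 438, 419 and 411 CPM, and C1R, C1S and CFB by 3.95, 4.68 and 4.22. SAA1 and SAA2, serum amyloid genes with near-identical sequences, fell together, SAA1 from 682 to 37.7 CPM. Parental cells at 24 h had 10 of the 21 acute phase genes lower and 1 higher, with a median of −0.36. The MYC-ER change was the lower one for 13 and the higher one for 3. Of 24 tested NF-kB and cytokine genes 18 were lower in MYC-ER cells and 3 higher. The median was −1.28, or −1.04 with the 3 members that had no counts in 1 group set to the change a count of 3 over that group allows. BIRC3, an NF-kB target that curbs cell death, fell from 1094, 1148 and 1110 CPM to 83.8, 80.5 and 83.1 CPM. The pathway's own inhibitors NFKBIA and TNFAIP3 fell by 1.86 and 3.09, NFKBIZ by 2.97, and the chemokines CXCL1 and CXCL2 by 3.88 and 3.92. In every one of these genes the highest 24 h library lay below the lowest 0 h library. For SERPINA3, C3, C1S, CFB, SAA1 and SAA2 the naming rule asked for this, so it is no separate result.

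Interferon response genes were divided, 14 of 34 higher and 14 lower. IFI27, IFI6, OAS2 and OAS3, known for their induction by type I interferon, rose by 2.16, 1.65, 1.82 and 1.30. PSMB9, TAP1, HLA-E and B2M, which serve antigen presentation, fell by 2.21, 1.36, 0.92 and 0.58, and the regulators IRF1 and STAT2 by 1.25 and 1.14.

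**Figure D4:**
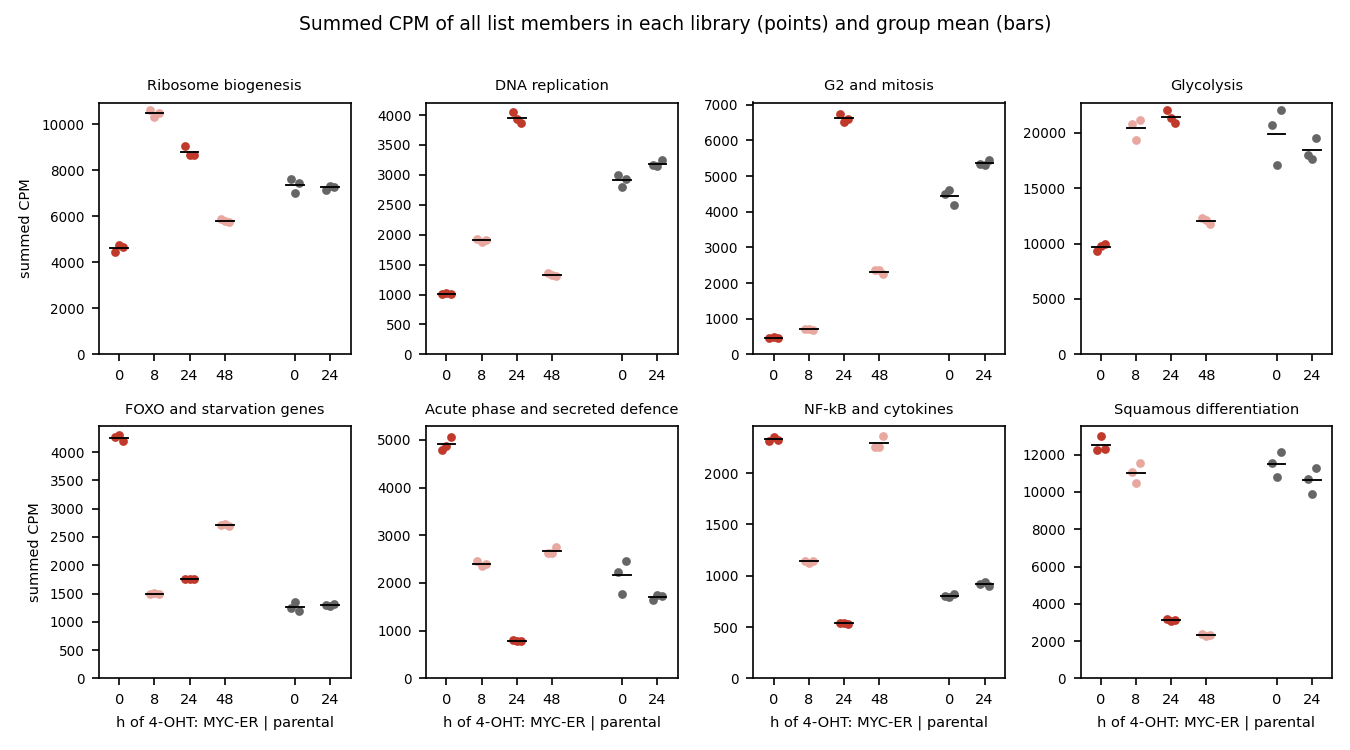
Summed CPM over all members of 8 lists in each of 3 libraries per group, with group means as bars and the axis from 0; MYC-ER 0 h and 24 h in red, MYC-ER 8 h and 48 h in pink, parental in grey. Between 0 h and 24 h of MYC-ER no list's libraries overlap, and the summed level of DNA replication and of G2 and mitosis is highest at 24 h.

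Squamous differentiation genes were lower in 15 of 26 tested cases and higher in 2. KRT10, a keratin of differentiating suprabasal cells, measured 5722, 6315 and 5810 CPM at 0 h and 75.0, 80.4 and 97.6 CPM at 24 h, 70.5-fold lower. KRT1, its usual partner, fell from 80.0 to 7.79 CPM. KRT16, a keratin of stressed epithelium, fell from 3161, 3243 and 3062 CPM to 64.7, 62.6 and 67.0 CPM, with the reservation that close copies of this gene exist. KRT6A did not pass the test (2751 and 2511 CPM). The 2 that rose were FLG, filaggrin, by 1.44, and SPRR1B, a protein of the cornified envelope, by 0.84. In parental cells 11 of the 26 were lower at 24 h and 3 higher, with a median of −0.23. The MYC-ER change was the lower one for 10 and the higher one for 2, and the difference did not pass the test for 14.

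Markers of epithelial type were checked against the label. Basal keratins were present throughout. KRT5 measured 12350, 12800 and 12430 CPM at 0 h and 7186, 6928 and 7169 CPM at 24 h and KRT14 rose by 1.39. Of 20 basal markers 7 were higher, 7 lower and 6 did not pass the test. COL17A1, TRIM29 and DSG3 fell by 0.96, 1.04 and 1.93, while LAMB3, a chain of laminin-332, rose by 1.51. Of 17 tested luminal and simple epithelial markers 6 were higher and 8 lower. EPCAM rose from 2.16, 1.91 and 1.73 CPM to 77.8, 77.3 and 72.3 CPM and KRT18 by 1.23, and ELF3 and MUC1 fell by 3.29 and 1.37. The oestrogen receptor gene ESR1 was at 0.557, 0.527 and 0.455 CPM at 0 h and 0.233, 0.107 and 0.211 CPM at 24 h, a fall that did not pass the test without MYC-ER 24 h replicate 2 (adjusted p = 0.0573), and PGR had no counts in any of the 6 libraries.

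Among stromal markers VIM, vimentin, which MCF-10A cells are known to make, rose from 159, 165 and 168 CPM to 812, 780.2 and 755 CPM, and CDH2 by 3.65. SNAI2, DCN, COL1A1 and TWIST1 fell by 2.21, 2.87, 1.74 and 1.49. In all, 3 of 11 tested were higher and 5 lower. Of the 14 members of this list COL1A2 and PDGFRA had 0 counts in the 6 libraries. So did PTPRC, CD3E, HBB, CDH5 and ADIPOQ of blood, endothelium and fat, a list of which 10 of 16 genes were tested, 4 higher and 3 lower. The summed level of that list was 61.5, 65.9 and 62.2 CPM at 0 h and 43.7, 37.5 and 36.9 CPM at 24 h, and the part of such cells in the results was not tested. HBA1 rose from 0.0464, 0.0454 and 0.0467 CPM to 14.5, 12.5 and 11.5 CPM with no counts of HBB, and its near-identical copy HBA2 from a mean of 0.0386 to 9.46 CPM. KDR, a receptor for VEGF, fell from 39.0, 41.7 and 36.6 CPM to 1.42, 1.53 and 1.63 CPM.

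Matrix genes changed in both directions, 11 of 27 tested higher and 14 lower. The collagen IV chains COL4A1 and COL4A2 rose by 2.82 and 3.62, and COL4A5 and COL4A6 fell by 1.01 and 0.71. FBLN5, NID1, LAMB1 and COL7A1 fell by 5.82, 4.78, 1.82 and 1.95, FBLN5 from 49.0, 52.6 and 50.1 CPM to 0.786, 0.852 and 1.05 CPM. Of 21 proteases and inhibitors 10 were higher and 7 lower, with a median of 0.59. At least 2-fold changes were 9 up and 4 down, and the largest rise was 8.05. With at least 10 counts asked of every library 15 could be tested, 6 higher and 7 lower, with a median of 0.07. MMP7 fell from 13.3, 14.3 and 14.2 CPM to 0.215, 0.246 and 0.301 CPM, and TIMP1, an inhibitor of such proteases, rose by 1.73. TGFBI, an abundant matrix protein named for its induction by TGF-β, fell from 11420, 11610 and 11700 CPM to 3667, 3613 and 3624 CPM. The TGF-β, BMP and ID group as a whole had 10 members higher and 10 lower of 21 tested. ATOH8, a target of BMP signals, fell by 3.33, and TGFBR2, a receptor, by 1.06. The ligand genes INHBA and TGFB3 rose by 2.97 and 1.97. At least 2-fold changes were 7 up and 5 down.

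In the oestrogen and aryl hydrocarbon receptor (AHR) group, both pathways that a tamoxifen metabolite could touch, 7 of 10 tested genes were lower and 1 higher. GREB1 measured 52.4, 51.0 and 47.5 CPM and then 10.7, 9.39 and 10.3 CPM, CYP1B1 fell by 2.83 and CYP1A1 by 1.73. In parental cells at 24 h 2 of the 10 were higher and 1 lower, with a median of 0.10. The parental shares over all tested genes were 21.2% higher and 21.7% lower.

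Of the other genes that the naming rule gave among the rises, CR2, a complement receptor of B cells, went from 0.0928, 0.204 and 0.129 CPM to 78.3, 74.3 and 70.9 CPM. S100A2, a calcium-binding protein of basal epithelium, rose from 464, 478 and 528 CPM to 3468, 3251 and 3409 CPM. FAM111B, DLGAP5, PKMYT1 and SPC25, genes of S phase and mitosis, rose by 7.89, 7.76, 7.79 and 7.71. Among the falls were NALCN, a sodium leak channel, from 60.3, 59.5 and 55.8 CPM to 0.594, 0.688 and 0.711 CPM, and MME, the surface peptidase CD10 of myoepithelial cells, from a mean of 271 CPM to 5.07 CPM. ADH1B, C5AR2, ETNK2 and BEST2 fell by 6.05, 5.68, 5.18 and 5.07. FTH1, the ferritin heavy chain, fell by 0.96 from 6064 CPM.

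The 24 h level was then set against the other times. Against 8 h 12296 genes (55.5%) differed at 24 h, 6300 higher (28.4%) and 5996 lower (27.1%), or 8594 higher and 4079 lower with library size alone as the scale. Against 48 h 11908 (53.7%) differed, 5650 higher at 24 h (25.5%) and 6258 lower (28.2%). All 66 G2 and mitosis genes were higher at 24 h than at 8 h and 65 were higher than at 48 h. MKI67 had a mean of 6.13 CPM at 8 h, 372 CPM at 24 h and 97.6 CPM at 48 h. DNA replication genes were higher than at 8 h in 46 cases and lower in 3, and higher than at 48 h in all 51. By contrast 33 of 40 ribosome biogenesis genes were lower at 24 h than at 8 h and 2 higher, while 38 were higher than at 48 h. NCL had means of 1618, 1407 and 639 CPM. Chaperone genes gave the same order, with 25 of 26 lower than at 8 h and 20 higher than at 48 h, and HSPA8 at 6603, 2584 and 946 CPM. Histone genes, uneven against 0 h, were higher than at 8 h in 17 of 21 cases. Of the 27 FOXO and starvation genes 14 were higher at 24 h than at 8 h and 3 lower, and 23 were lower than at 48 h. TXNIP had means of 661, 682 and 857 CPM.

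Genes highest at 24 h, above 0 h, 8 h and 48 h with all 3 tests passed, numbered 1646 (7.43% of those tested), of which 545 were at least 2-fold above each. By the naming rule the leading ones were ESCO2, MYBL2, PKMYT1, CDC45, EXO1, BLM, RRM2 and CA9, of which CDC45 and RRM2 serve DNA synthesis and EXO1 and BLM DNA repair. CDC45 had means of 5.63 CPM at 8 h and 5.58 CPM at 48 h against 42.3 CPM at 24 h, and CA9 15.2 and 34.6 CPM against 212 CPM. Genes lowest at 24 h numbered 1703 (7.69%), 288 of them at least 2-fold below each other time. TNFSF14, a cytokine of the TNF family, had a mean of 2.45 ± 0.305 CPM (SD, n = 3) at 24 h, with 27.2, 29.2 and 30.4 CPM in the 0 h libraries. BEST2, SAA1, SAA2, SERPINA3, C1S, GFPT2 and CFB completed this set, 5 of them acute phase or complement genes. CFB had means of 112, 40.2, 6.01 and 105 CPM in order of time. NF-kB and cytokine genes were lower at 24 h than at 8 h in 20 of 24 cases and lower than at 48 h in 20, and BIRC3 had means of 243 and 926 CPM at these times. Squamous genes were lower than at 8 h in 14 of 26 cases and lower than at 48 h in 16, and KRT10 had 84.3 CPM at 24 h and 101 CPM at 48 h.

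In parental cells, which lack the fusion, 9503 genes (42.9%) differed between 24 h and 0 h of 4-OHT. Of them 4698 were higher (21.2% of those tested) and 4805 lower (21.7%), and 881 changed at least 2-fold. The count of 9503 rests on the spread shared over all groups. A fit of the 6 parental libraries alone called 4426. Across the 9784 genes that averaged 10 CPM or more, the parental change followed the GC content of the gene's longest transcript (Spearman rho −0.657 across genes, which are not independent replicates) and its length (0.548). The same values were −0.0628 and −0.126 for the MYC-ER change. One parental 0 h library had 3.86% mitochondrial counts and the other 2 had 7.28% and 7.03%. The part of these in the parental change was not tested.

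The difference between the lines, that is the MYC-ER change less that of parental cells at 24 h, passed the test for 12071 genes (54.5%), 6131 with a higher change in MYC-ER cells (27.7%) and 5940 with a lower one (26.8%). All 66 G2 and mitosis genes and 48 of 51 DNA replication genes had a higher change in MYC-ER cells, as did 33 of 40 ribosome biogenesis genes, 28 of 31 nucleotide synthesis genes and 17 of 20 glycolysis genes. FOXO and starvation genes had a lower change in 21 of 27 cases and NF-kB and cytokine genes in 18 of 24. With each library's trend on GC content removed these counts were 66, 50, 37, 28 and 17 and then 21 and 17. Of the 34 ribosomal protein genes, 26 had fallen in MYC-ER cells and all in parental cells, and the MYC-ER change was the higher one for 8 and the lower one for 1. Of 26 hypoxia genes, 17 had a higher change in MYC-ER cells and 6 a lower one.

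The lines also stood at different levels at 0 h. The summed level of G2 and mitosis genes in parental cells was 4505, 4612 and 4186 CPM at 0 h and 5330, 5308 and 5446 CPM at 24 h, against the values of MYC-ER cells given above. BIRC5 in parental cells measured 89.3, 68.9 and 85.6 CPM at 0 h and 71.5, 69.0 and 73.0 CPM at 24 h. In both values the 24 h MYC-ER libraries lay above every parental library at 0 h and 24 h, and the 0 h MYC-ER libraries far below. SERPINA3 in parental cells was at 12.8, 12.2 and 12.2 CPM at 0 h, under the 26.7, 28.4 and 29.3 CPM of MYC-ER cells at 24 h. KRT10 was at 563, 533 and 523 CPM at 0 h and 134, 136 and 133 CPM at 24 h there. The lines were not tested against each other at 0 h.

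**Figure D5:**
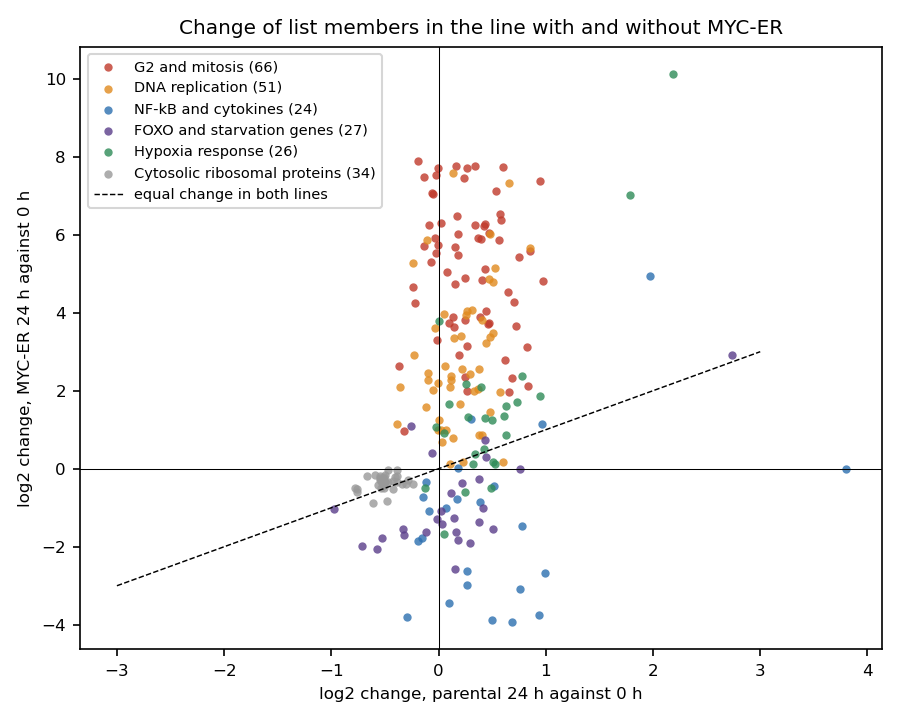
Each point is a tested member of 6 lists, with the log2 change at 24 h of 4-OHT in parental cells on the horizontal axis and in MYC-ER cells on the vertical axis; the dashed line marks equal change. All G2 and mitosis genes and most DNA replication genes stand above the line, most NF-kB and FOXO genes below it, and ribosomal protein genes near it with falls in both lines.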

How the data were processed

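Poly(A)-selected stranded libraries were sequenced as 150-base read pairs, per the labels' protocols. The authors deposited 1 table of estimated counts, whole numbers per gene and library. The submitters' processing notes name Trimmomatic 0.39, STAR, StringTie 2.1.3b and GRCh38, with no role or order, and the use of strand in counting is not given in the sources used here, so antisense and overlapping genes cannot be told apart.

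From these counts edgeR 4.0.16 (R 4.3.3, limma 3.58.1) fitted 1 mean per group over all 24 libraries, with TMM scaling and its filter on low counts. The two-sided quasi-likelihood test was adjusted by the Benjamini-Hochberg method, with 0.05 as threshold. The SE is the log2 change divided by the square root of F. Of 60340 rows with a symbol, 22021 were tested. The fit was also run on simulated counts with few changed genes and the same spread for all genes. In the data 61.6% of genes were called, so that run is no check of the scaling or the error rate here. The Dixon outlier rule was not applied, since each group has 3 libraries. Alternatives were other scalings, filters, DESeq2 1.42.0, a replicate block, the compared groups alone and leaving out each library. Members and gene lists were chosen with earlier results of these data known. Genes were named by size of change: the 12 largest rises and falls, the 8 largest in CPM, the 8 highest and lowest at 24 h among the times, the 6 largest differences between lines each way, and list members. Replicates differed by more than sampling noise (chi-square per degree of freedom 9.58 to 20.3). Promoters are RefSeq's on GRCh38.p14, matched by symbol. The results of 1 list and of some genes are not reported here.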

Additional observations from a re-analysis of the deposited data

Results flagged for a closer look

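The change over 24 h of 4-OHT differed between MYC-ER and parental cells for 12071 genes by the test of the difference itself, and 2842 of these passed the test in both lines with opposite signs. In 1379 of the 2842 MYC-ER cells rose while parental cells fell, and in 1463 the reverse held. A change of at least 2-fold in both lines was met by 84. With only the groups compared in the fit, 1178 genes had opposite signs and 47 of them at least 2-fold in both lines. With at least 10 counts asked of every library these numbers were 3002 and 48, of 16056 genes tested and not 22158.

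The naming rule covers only genes that met its conditions, given above. Among these, the largest differences on the side of a higher change in MYC-ER cells were CR2 (8.419 on the log2 scale), HBA1 (8.372), BIRC5 (8.085), PKMYT1 (7.945), CA9 (7.929) and ETV4 (7.888). The parental log2 change of BIRC5 was -0.19 (adjusted p = 0.14), and CA9 rose there by 2.18 (adjusted p = 0.0012). On the other side stood KLHL38 (-6.3), SLC2A14 (-6.102), ADH1B (-6.078), NALCN (-5.942), GFPT2 (-5.776) and FBLN5 (-5.641). KLHL38 went from 10.9, 11.2 and 10.9 CPM to 0.169, 0.183 and 0.429 CPM in MYC-ER cells, and GFPT2, an enzyme of hexosamine synthesis, from 18.6, 18.8 and 19.4 CPM to 0.611, 0.701 and 0.628 CPM.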

How the results depend on the processing

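Under every alternative run, leaving out a library included, 24 h against 0 h gave 11891 to 14438 genes, the difference between the lines 10997 to 12789, 24 h against 8 h 10700 to 12895 and 24 h against 48 h 10804 to 13602. These counts come from unlike numbers tested, so the shares called differ more. Tested were 16056 genes with at least 10 counts asked of every library and 36454 with no filter on low counts. With the GC trend removed 21724 were tested, and otherwise 22158. Of the counts per comparison only that of parental cells moved beyond 1.5 times, from 9503 in the fit of all groups to 4426 with only the groups compared. Under that alternative the genes with opposite signs in the lines also went from 2842 to 1178. The cause was not tested. Leaving out each library in turn gave 12801 to 12936 genes for 24 h against 0 h, 11497 to 12789 for the difference between lines, 7866 to 10691 for parental cells, 11254 to 11699 against 8 h and 10804 to 11089 against 48 h. Where 1 library was left out of a group, the remaining 2 are assumed to vary like the other groups. Of the 24 h against 0 h calls for the 252 genes named, 242 kept direction and side of the threshold under every alternative that gave them a value, and of their differences between lines 230 did. With at least 10 counts asked of every library 10 of the genes were not tested. Removing each library's trend on GC content, an alternative chosen after seeing the data, reversed the sign of the difference between lines for ORC4 (0.28, against -0.06), TAF1D (0.032, against -0.32) and TFEB (-0.15, against 0.004467). With a replicate block 13572 genes differed at 24 h from 0 h, 11973 between the lines, 9410 in parental cells, 12175 against 8 h and 11854 against 48 h. Whether the replicate numbers pair the samples could not be settled. The deviations of same-numbered 0 h and 24 h MYC-ER libraries from their group means correlated at only 0.0296, 0.0254 and 0.036. Each of these libraries correlated best with that of its own number, a hint from the data and not from the design. Libraries of unlike number reached higher values elsewhere, 0.0494 for MYC-ER 8 h replicate 2 and 24 h replicate 3. Parental 0 h replicate 3 and 24 h replicate 2 gave 0.0463. A gene with no counts in a library may have had up to 3 counts there.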
